A study of Mus musculus with 6 samples.

Results

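The 6 genes of the platelet-derived growth factor (PDGF) family were followed in mammary epithelial organoids of mice with and without Wwox: the ligands Pdgfa, Pdgfb, Pdgfc and Pdgfd and the receptors Pdgfra and Pdgfrb. They were taken as every probe set whose gene symbol on the array's annotation is exactly one of these names, which gave 14 probe sets of the 45037 tested. The rule itself uses names and no measured value. The arrays were whole-genome Affymetrix mouse chips, on which a probe set is a group of short probes read together. All levels are log2 values from RMA, a method that puts the arrays on a common scale and gives 1 value per probe set.

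The KO mice carried floxed Wwox alleles and the BK5-cre transgene, in which the bovine keratin 5 promoter drives Cre recombinase in the keratin 5 lineage. The WT mice carried the same floxed alleles without BK5-cre. All were 8 weeks old and of mixed 129/J and C57BL/6 background, with 3 mice per group and 1 array per mouse, named WT1 to WT3 and KO5 to KO7. KO5, KO6 and KO7 are the KO replicates 1, 2 and 3 of the labels. No group carried Cre without floxed Wwox, so Cre and the loss of Wwox cannot be told apart. The RNA came from whole organoids, clusters of mammary epithelium released from the gland by digestion, which can keep stromal cells attached. In such bulk RNA, fewer cells of a type and less RNA per cell cannot be told apart.

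PDGFs are secreted dimers that bind tyrosine kinase receptors, mostly on mesenchymal cells. PDGF-A and PDGF-B are cut by furin-like proteases inside the cell, whereas PDGF-C and PDGF-D are secreted in a latent form and activated outside it by proteases that remove their CUB domains. PDGF-A and PDGF-C act mainly through the alpha receptor, a marker of fibroblasts and adipocyte progenitors, and PDGF-B and PDGF-D mainly through the beta receptor, which marks pericytes and vascular smooth muscle. In many organs the ligands are made by epithelial or endothelial cells and the receptors by the neighbouring stroma.

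The brightest Wwox probe set read 7.77, 7.63 and 7.72 in WT1 to WT3 and 6.23, 5.87 and 5.96 in KO5 to KO7, a fall of 1.69 ± 0.13 (SE; limma adjusted p = 0.0228). Epithelial keratins were bright on every array, with the luminal keratin Krt8 between 14.40 and 14.71 and the basal keratin Krt14 between 10.22 and 10.68. Some markers of stromal cells were bright as well. The fibroblast collagen Col3a1 lay between 13.29 and 14.03 and the adipocyte marker Fabp4 between 14.02 and 14.30. The other adipocyte markers measured were dimmer, such as Adipoq between 5.67 and 9.00 and Lep between 4.36 and 5.02. RNA quality differed between the groups. The difference between 3′ and 5′ probe sets, averaged over Gapdh and Actb, which grows as RNA degrades, was 0.96, 2.13 and 1.80 in WT1 to WT3 and 0.55, 0.60 and 0.54 in KO5 to KO7. WT1 therefore lay nearer to the KO arrays than WT2 and WT3 did.

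Among the PDGF genes, Pdgfc was lower in KO organoids on both of its probe sets, at 57.8% and 61.3% of the WT level, and the other 3 ligands and both receptors had no difference that was shared by all of their probe sets and larger than the spread between mice. Calls needed an unadjusted limma p under 0.01 together with a change of at least 2-fold. By that limit 0 of the 14 PDGF probe sets were called, against 1.99% of all probe sets. At an unadjusted p under 0.05 there were 4 PDGF probe sets, 3 lower and 1 higher, against 19.3% of all probe sets. The 2 with a p under 0.01 were both of Pdgfc and both lower, and 3.29% of all probe sets reached that limit in that direction. None reached an adjusted p under 0.05, the lowest being 0.111 (limma, Benjamini-Hochberg). WT and KO values did not overlap in 3 PDGF probe sets, against 24.3% of all probe sets. The PDGF counts at p under 0.05 and without overlap were therefore near those of the whole array. The median change was 0.03 over the 14 probe sets and -0.03 over all probe sets.

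**Figure D1:**
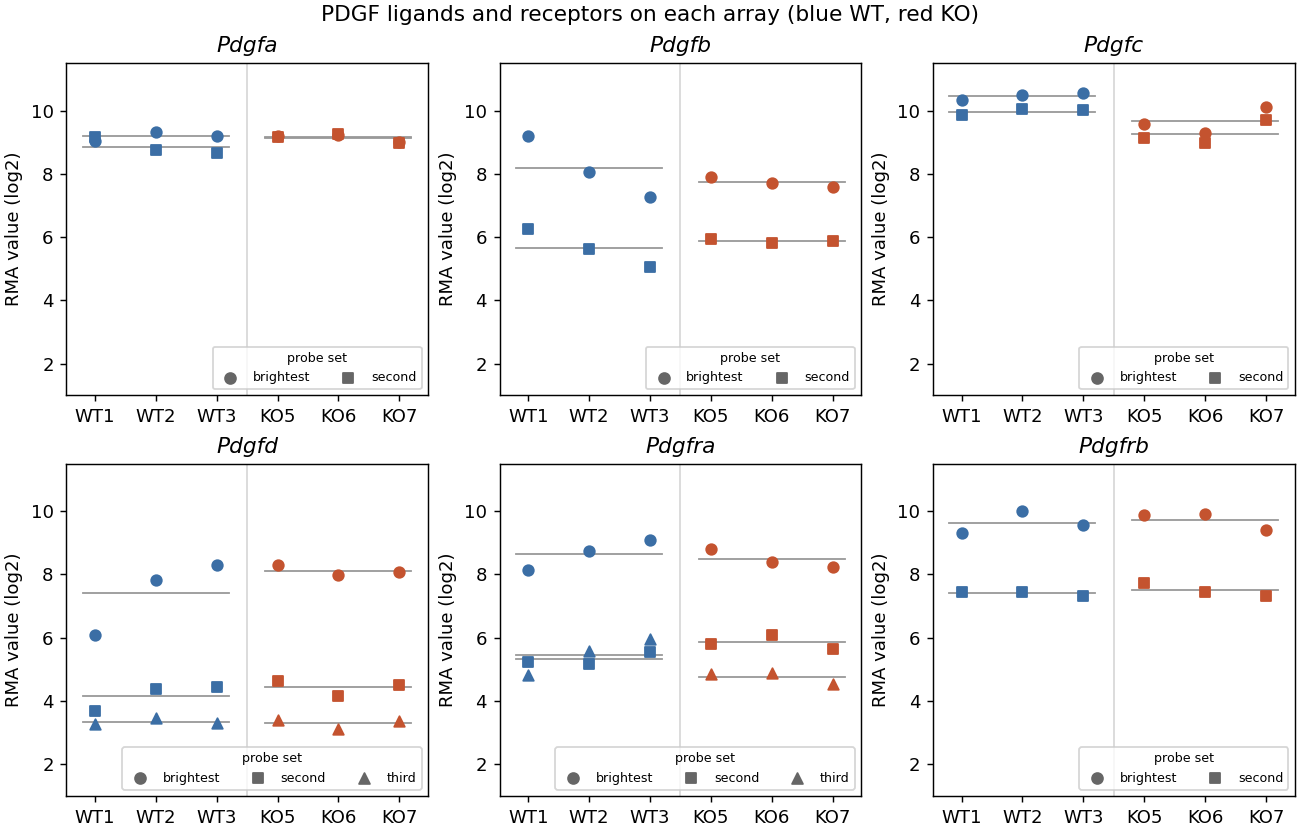
RMA value (log2) of each PDGF probe set on each of the 6 arrays, WT in blue and KO in red, with a grey line at the mean of each group of 3 and symbols for the probe sets of a gene in order of brightness. Both Pdgfc probe sets lie lower on KO5 to KO7 than on WT1 to WT3, and Pdgfb and Pdgfd each have a WT1 value far from those of WT2 and WT3.

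Pdgfc, the ligand that activates the alpha receptor after its CUB domains are removed, had the clearest difference of the family. Its brightest probe set (1419123_a_at) read 10.32, 10.49 and 10.55 in WT1 to WT3 and 9.59, 9.28 and 10.12 in KO5 to KO7. All KO values were below all WT values, with a gap of 0.21 between WT1 and KO7, and KO7 was the KO array nearest to WT. The change was -0.79 ± 0.21 (SE; 95% confidence interval -1.28 to -0.30), with an unadjusted limma p of 0.00626 and an adjusted p of 0.111.

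The second Pdgfc probe set (1449351_s_at) read 9.85, 10.05 and 10.02 in WT1 to WT3 and 9.12, 8.98 and 9.69 in KO5 to KO7. The order of the arrays was nearly the same, with KO6 lowest and KO7 again nearest to WT, and the gap between the groups was 0.15. The change was -0.71 ± 0.19 (SE; 95% confidence interval -1.16 to -0.26), with an unadjusted limma p of 0.00732 and an adjusted p of 0.118. Array by array, the brightest probe set exceeded the second by 0.30 to 0.53, so both tracked each other within 0.23 over the 6 arrays. They measure 1 gene and are not independent evidence of its change.

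The Pdgfc difference was smaller than 2-fold with all arrays and passed the call only when KO7 was left out, with a change of -1.02 (limma unadjusted p = 0.000472, adjusted p = 0.132). With the 3′ minus 5′ measure of RNA quality in the fit, the changes were -0.64 and -0.54, with unadjusted limma p values of 0.157 and 0.189. That measure spans 0.54 to 0.60 among the KO arrays and 0.96 to 2.13 among the WT arrays. Since the groups do not overlap in it, RNA quality and genotype cannot be told apart. Within the groups it varies mostly among the WT arrays, so its slope in the fit rests mostly on them. Under that setting 0 of 45037 probe sets reached a limma adjusted p under 0.05. These limits hold for every value given with the RNA quality measure. The part of RNA quality in the Pdgfc difference was not tested further.

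Pdgfa, the other ligand of the alpha receptor, is typically epithelial. Its brightest probe set read 9.04, 9.33 and 9.20 in WT1 to WT3 and 9.21, 9.24 and 9.00 in KO5 to KO7. The groups overlapped fully, and the change was -0.04 (95% confidence interval -0.34 to 0.26; limma adjusted p = 0.897), so a change of 1.5-fold lay outside the interval in both directions. The second Pdgfa probe set read 9.16, 8.74 and 8.65 in WT1 to WT3 and 9.17, 9.25 and 8.99 in KO5 to KO7. Its change was 0.28 (95% confidence interval -0.09 to 0.66; adjusted p = 0.387), with WT1 at the level of the KO arrays.

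Pdgfc was also set against each of 3 other members within the same array. The brightest Pdgfc value minus the brightest Pdgfa value was 1.28, 1.16 and 1.34 in WT1 to WT3 and 0.38, 0.05 and 1.12 in KO5 to KO7. The groups did not overlap, and the difference fell in mean by 0.75, with an exact two-sided permutation p of 0.1, the smallest that 3 against 3 arrays allow. Over the 13 within-array differences tested the adjusted p was 0.325. Since Pdgfa itself changed by only -0.04, this difference is largely that of Pdgfc again. The same subtraction with Pdgfra or Pdgfrb in place of Pdgfa overlapped between the groups, with mean differences of -0.62 (exact p = 0.3) and -0.89 (exact p = 0.2).

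Pdgfb, which endothelial cells, platelets and macrophages produce and which recruits pericytes, varied more among WT than among KO mice. The brightest probe set read 9.20, 8.06 and 7.27 in WT1 to WT3 and 7.89, 7.71 and 7.60 in KO5 to KO7. WT1 was the highest and WT3 the lowest of all 6 arrays, and the KO arrays lay between them. The SD was 0.97 in WT and 0.15 in KO (n = 3 each), and the change was -0.44 (95% confidence interval -1.44 to 0.56; limma adjusted p = 0.626). That value was 0.07 without WT1, -0.90 without WT3 (limma unadjusted p = 0.0251) and -1.76 with the RNA quality measure in the fit. The second Pdgfb probe set read 6.26, 5.63 and 5.05 in WT1 to WT3 and 5.95, 5.81 and 5.87 in KO5 to KO7, again with WT1 highest and WT3 lowest. Its change was 0.23 (95% confidence interval -0.41 to 0.88; adjusted p = 0.70), opposite in sign to that of the brightest probe set, and it was 0.54 without WT1 (limma unadjusted p = 0.0249), -0.07 without WT3 and -0.54 with the RNA quality measure.

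Both Pdgfb probe sets ordered the WT mice alike. The brightest minus the second was 2.94, 2.43 and 2.22 in WT1 to WT3 and 1.95, 1.90 and 1.73 in KO5 to KO7. The groups did not overlap and the means differed by -0.67, but 3 arrays against 3 cannot pass 0.05 (exact permutation p = 0.1, adjusted 0.325). Over all genes, 30.1% of pairs of probe sets of 1 gene had within-array differences that did not overlap between the groups, and 3 of the 10 such pairs of PDGF genes did not overlap. Which of the probe sets follows the Pdgfb transcript more closely was not tested.

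Pdgfd, the protease-activated ligand of the beta receptor, had 1 array far from the rest. Its brightest probe set read 6.09, 7.82 and 8.31 in WT1 to WT3 and 8.29, 7.99 and 8.08 in KO5 to KO7. WT1 differed by -2.01 from the mean of the other 5 arrays, which spanned only 7.82 to 8.31. The change was 0.71 (95% confidence interval -0.48 to 1.91; limma adjusted p = 0.493), and it was 0.06 without WT1 and 1.17 without WT3 (unadjusted p = 0.0374). With the RNA quality measure in the fit the change became 2.53 (limma unadjusted p = 0.00214, adjusted p = 0.764), the only PDGF probe set called under that setting. The measure was 0.96 in WT1 and 2.13 and 1.80 in WT2 and WT3. The value of 2.53 therefore leans on the same outlying WT1 array.

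The other Pdgfd probe sets were dim. The second read 3.70, 4.39 and 4.43 in WT1 to WT3 and 4.64, 4.15 and 4.52 in KO5 to KO7, again with WT1 lowest (change 0.27, limma adjusted p = 0.57). The third stayed between 3.13 and 3.47 on all arrays, with a mean above that of only 8.4% of all probe sets, and its change was -0.04 (adjusted p = 0.888).

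**Figure D2:**
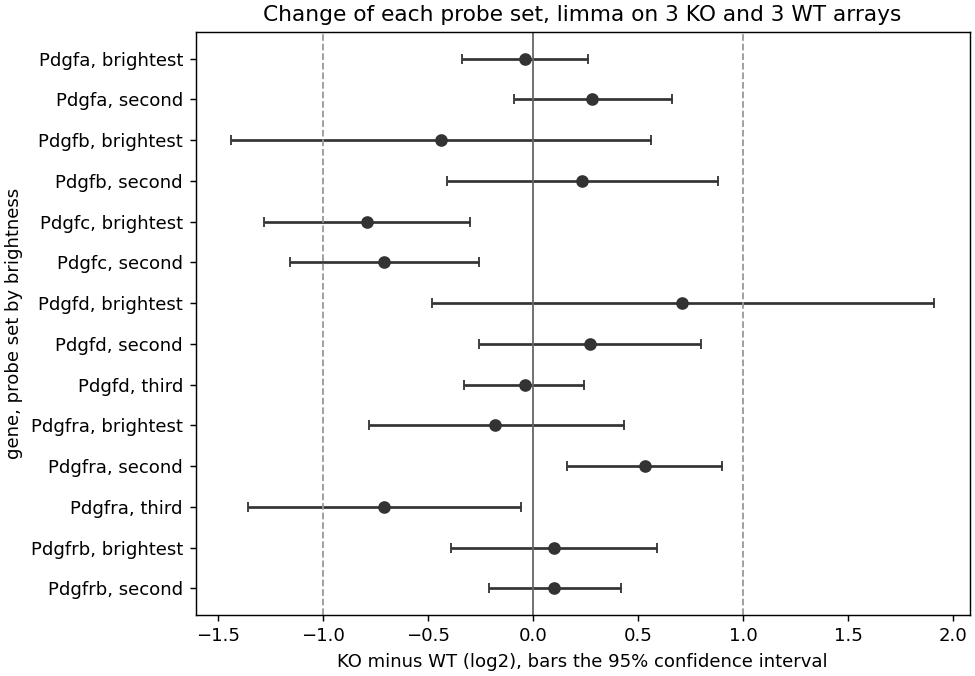
Change of each PDGF probe set between genotypes, KO minus WT in log2 units on the horizontal axis, from the limma fit on 3 KO and 3 WT arrays. Points are the estimates, bars the 95% confidence intervals, the solid line marks no change and the dashed lines a 2-fold change; 4 intervals, those of both Pdgfc and the second and the third Pdgfra probe set, exclude 0.

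Pdgfra, the alpha receptor of fibroblasts and adipocyte progenitors, gave a different answer on each of its 3 probe sets. The brightest (1421917_at) read 8.13, 8.75 and 9.09 in WT1 to WT3 and 8.80, 8.40 and 8.24 in KO5 to KO7. The KO arrays lay inside the WT range, and the change was -0.18 (95% confidence interval -0.78 to 0.43; limma adjusted p = 0.763), or 0.52 with the RNA quality measure in the fit. The second (1421916_at) read 5.23, 5.18 and 5.55 in WT1 to WT3 and 5.81, 6.08 and 5.65 in KO5 to KO7. Here all KO values were above all WT values, by 0.10 at the nearest, and the change was 0.53 ± 0.16 (SE; 1.44-fold; unadjusted p = 0.0115, adjusted p = 0.139). The third (1438946_at) read 4.82, 5.57 and 5.97 in WT1 to WT3 and 4.85, 4.87 and 4.53 in KO5 to KO7. WT1 lay among the KO arrays, and the change was -0.71 ± 0.28 (SE; unadjusted p = 0.0369, adjusted p = 0.225).

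The other 2 of these 3 pairs were of Pdgfra. The second minus the third was 0.41, -0.39 and -0.42 in WT1 to WT3 and 0.96, 1.21 and 1.13 in KO5 to KO7, a difference of 1.23 with no overlap (exact permutation p = 0.1, adjusted 0.325). The brightest minus the third was 3.31, 3.18 and 3.12 in WT1 to WT3 and 3.96, 3.53 and 3.71 in KO5 to KO7, a difference of 0.53 with no overlap at the same p values. The second and the third probe set had means under 6 and the annotation used gives no place for them along the transcript, so no direction of Pdgfra as a gene was read from them. Without WT1, the array of the lowest 3′ to 5′ difference in its group, the third probe set was called at -1.02 (limma unadjusted p = 0.000797, adjusted p = 0.0221). With the RNA quality measure in the fit it was 0.14.

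Pdgfrb, the beta receptor of pericytes, had overlapping levels in both genotypes. Its brightest probe set read 9.32, 9.99 and 9.57 in WT1 to WT3 and 9.87, 9.91 and 9.40 in KO5 to KO7, with a change of 0.10 (95% confidence interval -0.39 to 0.59; limma adjusted p = 0.842). The second read 7.44, 7.43 and 7.31 in WT1 to WT3 and 7.73, 7.43 and 7.33 in KO5 to KO7, with a change of 0.10 (95% confidence interval -0.21 to 0.42; adjusted p = 0.73). The groups overlapped in both, and both intervals exclude a 2-fold change. With the RNA quality measure in the fit the brightest was 0.67 (limma unadjusted p = 0.0722) and the second 0.06. The distance between both probe sets had the same mean in both groups (mean difference 0.00, exact permutation p = 1).

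**Figure D3:**
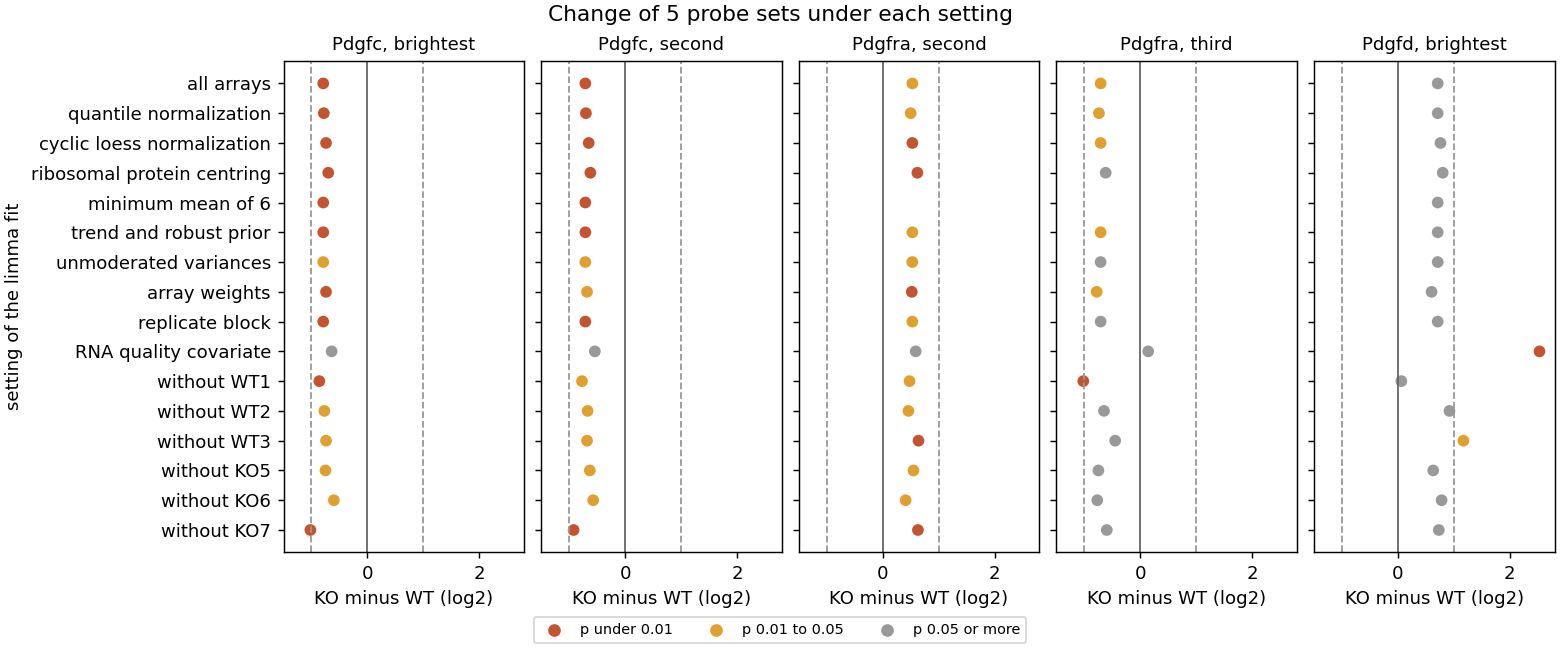
Change of 5 PDGF probe sets, KO minus WT in log2 units, under each setting of the limma fit on the vertical axis, with the colour giving the unadjusted p and dashed lines at 2-fold. Pdgfc stays below 0 throughout, the third Pdgfra probe set is above 0 only with the RNA quality covariate, and Pdgfd runs from 0.06 without WT1 to 2.53 with that covariate; probe sets with a mean under 6 have no point in the setting that leaves them out.

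The genes around the ligands and receptors were taken from 4 lists, of which 61 of 67 genes were measured, each on its brightest probe set. Of the 61, 3 rose and 0 fell by the same limit, against 0.978% of all genes called. The median change was 0.07 over the 61 and -0.06 over all 18193 genes. The 3 were Plau, Sparc and Flt1.

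Of the 10 genes for ligand processing and co-receptors, 2 rose, 9 were higher and 1 lower, with a median change of 0.25. Plau, the urokinase that can activate PDGF-D, read 6.32, 4.67 and 5.09 in WT1 to WT3 and 7.39, 7.52 and 7.12 in KO5 to KO7. It rose by 1.98 ± 0.39 (SE; limma adjusted p = 0.0675), with no overlap. Sparc, a matricellular glycoprotein that binds PDGF-B, read 12.31, 11.40 and 11.22 in WT1 to WT3 and 13.42, 13.48 and 13.20 in KO5 to KO7. It rose by 1.73 ± 0.27 (SE; adjusted p = 0.0533), again with no overlap. In both genes WT1 was the WT array nearest to KO. Plat, the tissue plasminogen activator that activates PDGF-C, changed by 0.18 (adjusted p = 0.638), and Furin, which cuts PDGF-A and PDGF-B, by 0.07 (adjusted p = 0.832). Neither Plat nor Furin passed the call, and they are named here for their role with values already seen.

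None of the 26 measured genes of receptor signalling was called by limma on its brightest probe set. At an unadjusted p under 0.05 there were 2 higher and 1 lower, against 19.3% of all probe sets, with a median change of 0.05. The smallest p values were those of Shc1, an adaptor that docks on activated receptors, with a change of 0.67 (unadjusted p = 0.00505, adjusted p = 0.103), and of Stat3, a transcription factor that receptor tyrosine kinases can activate, with 1.28 (unadjusted p = 0.0102, adjusted p = 0.134). The Stat3 levels were 11.77, 10.39 and 10.25 in WT1 to WT3 and 11.99, 12.07 and 12.20 in KO5 to KO7, so that WT1 lay near the KO arrays. Stat3 changed by -0.12 and Shc1 by 0.10 with the RNA quality measure in the fit. Of the 26 genes, 3 were called higher on another probe set and 0 lower. These were Nck2 at 1.56, Braf at 1.96 and Akt1 at 2.18 (limma adjusted p = 0.124, 0.0915 and 0.0761). Over all probe sets 1.99% were called, and the share of all genes called on any probe set was not computed. A gene with more probe sets, such as Braf with 9, has more chances of a call. Among 11 inhibitors of receptor signalling none was called by limma on its brightest probe set. At an unadjusted p under 0.05 there were 1 higher and 2 lower, with a median of 0.03. The phosphatase Ptpn2, which can dephosphorylate receptor tyrosine kinases, changed by -0.34 (adjusted p = 0.182), and Rasa1, the Ras GTPase-activating protein that binds the beta receptor, by -0.34 (adjusted p = 0.209). Ptpn2 changed by -0.08 with the RNA quality measure in the fit. Another Rasa1 probe set, the dimmest of 3, was called in the opposite direction at 1.33 (adjusted p = 0.122). The second Cbl probe set was called higher at 1.40 (limma adjusted p = 0.0805).

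Of the 14 related growth factors and receptors, 1 rose, with a median change of 0.03. It was Flt1, the receptor for VEGF-A and placental growth factor on endothelial cells, which read 8.56, 8.52 and 7.98 in WT1 to WT3 and 9.46, 9.51 and 9.29 in KO5 to KO7 and rose by 1.07 ± 0.17 (SE; limma adjusted p = 0.0555). Kit and Kdr, receptors whose genes are the first and the second after Pdgfra in the RefSeq order, changed by -0.28 (adjusted p = 0.377) and 0.44 (adjusted p = 0.308). With the RNA quality measure in the fit, Plau changed by 0.48, Sparc by 0.80 and Flt1 by 0.91, and none of them was called. Flt1 was also not called without WT3, at 0.89. Kitl was not called on its brightest probe set, but was called higher on its dimmest at 1.22 (limma adjusted p = 0.108).

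**Figure D4:**
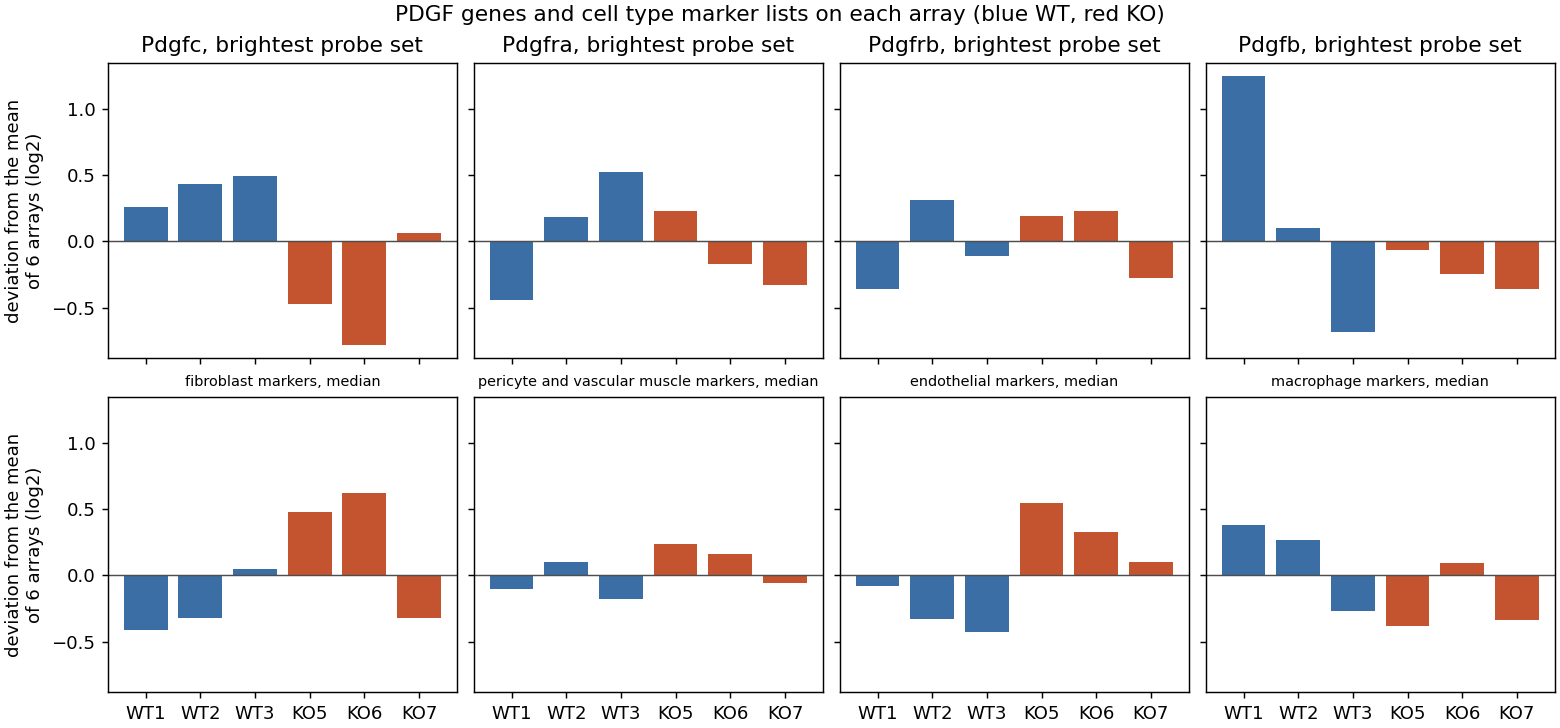
Bars give the deviation of each array from the mean of the 6 arrays (log2), for the brightest probe set of 4 PDGF genes in the upper panels and for the median of 4 cell type marker lists in the lower panels, WT in blue and KO in red. Pdgfc is lowest on KO5 and KO6, where the fibroblast median is highest at 0.48 and 0.62, and the receptors do not separate the genotypes. Among the WT arrays Pdgfc and the fibroblast median are both lowest on WT1 and highest on WT3.

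Because the PDGF receptors are genes of stromal cells, marker lists of those cells were measured beside them. Of 11 fibroblast markers 3 rose, the collagen Col1a1 by 1.43 and the adventitial fibroblast genes Clec3b by 1.53 and Pi16 by 1.81, while 10 were higher and 1 lower, with a median change of 0.56, where 0.978% of all genes were called in either direction. With the RNA quality measure in the fit Clec3b was 0.90 and Pi16 2.05, neither called, Col1a1 was called at 1.48 and the list's median was 0.68. Col1a1 was called without any 1 array, whereas Pi16 was not called without WT2 (1.69) or without KO5 (1.71). The list's median deviation was -0.41, -0.32 and 0.05 in WT1 to WT3 and 0.48, 0.62 and -0.32 in KO5 to KO7. KO7 thus lay with the WT arrays for this list, as it lay nearest to them for Pdgfc. Among the WT arrays the order was another, since the list and Pdgfc (10.32, 10.49 and 10.55) were both lowest on WT1 and highest on WT3. Pdgfra on its brightest probe set was 8.80, 8.40 and 8.24 in KO5 to KO7 and did not part from WT. The part of fibroblast content in the Pdgfc and Pdgfra values was not tested.

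Of 10 pericyte and vascular muscle markers none was called by limma and 2 were higher at an unadjusted p under 0.05, with a median change of 0.15. The pericyte gene Rgs5 was 0.56 higher (unadjusted p = 0.0016, adjusted p = 0.0729), under the 2-fold limit, and was called on 2 of its other probe sets at 1.53 and 2.03. The proteoglycan Cspg4 was 0.58 higher (adjusted p = 0.177). The list's median deviation was -0.10, 0.10 and -0.18 in WT1 to WT3 and 0.24, 0.16 and -0.06 in KO5 to KO7. KO7 lay within the WT range here too, and KO5 and KO6 lay above it. On the brightest Pdgfrb probe set all KO arrays lay within the WT range. All 10 endothelial markers were higher in KO, with a median change of 0.68 against -0.06 over all genes. Of these 2 rose, the tight junction gene Cldn5 by 1.24 and the receptor Tie1 by 1.16, where 0.978% of all genes were called in either direction. Tie1 was not called without WT2 (1.04), WT3 (0.93), KO5 (1.02) or KO6 (1.09). Tie1 was 0.18 and not called with the RNA quality measure in the fit, where Cldn5 was called at 1.42 and the list's median was 0.30. The list's median deviation was -0.08, -0.33 and -0.43 in WT1 to WT3 and 0.55, 0.33 and 0.10 in KO5 to KO7, without overlap. The Flt1 values stand beside these, and Pdgfb, also an endothelial gene, did not separate the genotypes.

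Of 10 macrophage markers all were lower in KO, with a median change of -0.26 against -0.06 over all genes. Of these 1 fell, the complement gene C1qb by 1.19, where 0.978% of all genes were called in either direction. C1qb was not called without WT2 (-0.96) or KO5 (-1.02), or with the RNA quality measure (-1.09). The second and the third C1qb probe set were also called lower, at -1.77 and -1.14 (limma adjusted p = 0.0571 and 0.13). The list's median deviation was 0.38, 0.27 and -0.27 in WT1 to WT3 and -0.38, 0.09 and -0.34 in KO5 to KO7. Among the WT arrays, WT3 was lowest and WT1 highest in both the macrophage list and Pdgfb. The KO arrays did not share this order, since KO5 and KO7 lay below WT3 in the macrophage list but above it in Pdgfb (7.89 and 7.60 against 7.27 on the brightest probe set). None of the 5 platelet markers was called by limma or reached an unadjusted p under 0.05, with a median of -0.14, and the smallest p values were those of Gp5 (-0.14) and Ppbp (-0.27). Of 6 adipocyte markers 1 rose on its brightest probe set, the lipase Lipe by 1.08, with a median of -0.02. Fabp4 changed by 0.19 on its brightest probe set and was called on others at 1.18 and 2.65 (limma adjusted p = 0.109 and 0.035). Lipe was not called without WT2 (0.76), WT3 (1.12), KO5 (1.08), KO6 (1.16) or KO7 (0.99), and with the RNA quality measure it was 0.10. None of 3 Schwann cell, 8 luminal or 7 basal epithelial markers was called by limma on its brightest probe set, with medians of 0.05, 0.13 and -0.02. Of these, 1 luminal marker, Pgr, the progesterone receptor, was higher at an unadjusted p under 0.05 with a change of 0.61. The others of smallest p were Krt19 (0.32) in the luminal list, Oxtr (-0.24) and Trp63 (-0.40) in the basal list, and Mbp (0.68) and Sox10 (0.05) in the Schwann cell list. On its dimmest probe set Mbp was called at 2.01 (limma adjusted p = 0.0505). The part of each cell type in the PDGF values was not tested.

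The genes most like each PDGF gene over the 6 arrays were found among 10736 genes by the root mean square difference between profiles centred on their means. For Pdgfc, whose own root mean square about its mean was 0.47, they were Prorp at 0.081, Mrpl46 at 0.103 and Pdcd2 at 0.109, with changes of -0.80, -0.68 and -0.73. Prorp is the mitochondrial RNase P nuclease, and Mrpl46 a protein of the mitochondrial ribosome. For Pdgfrb, with 0.26 of its own, they were Abcc9 at 0.071, a potassium channel subunit that is also on the pericyte list, the secreted protease Htra1 at 0.073 and Ctla2b at 0.085. For Pdgfra, with 0.34, they were Fam13c at 0.059, Ikbip at 0.061 and Rassf4 at 0.063.

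Pdgfb, with 0.61, was most like Il27ra at 0.132, a cytokine receptor of leukocytes, then Gimap1 at 0.175, a GTPase of lymphocytes, and Daglb at 0.20. For Pdgfd, with 0.77, the nearest were Kcna5 at 0.261 and Pir and Timp4 at 0.372 each. A gene of larger spread can have larger differences, so these values were not compared between PDGF genes. Pdgfa varied little, with 0.11, and was followed by Nfe2l2 at 0.037, Palmd at 0.038 and Ascc3 at 0.042. These likenesses rest on 6 arrays and are a description.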

How the data were processed

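Organoid RNA of each of 3 WT and 3 KO mice was hybridised to an array of its own. The values are log2 values that the authors deposited. Per the labels they come from RMA, whose version is not given in the sources used here. The methods name the package simpleaffy for normalization and limma for the tests. RMA quantile normalizes the arrays, so a shift common to most transcripts is not seen. The values were not normalized again.

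Genotypes were compared over 45037 probe sets by limma 3.58.1 under R 4.3.3 (lmFit, eBayes, no covariate), with p values adjusted by Benjamini and Hochberg over all of them. The limits of the call, 0.01 and 2-fold, are those of the paper. The fit was tested on simulated data. Intervals are limma's 95% intervals. Within-array differences were compared by exact two-sided permutation. A listed gene was read on its brightest probe set with 1 symbol. From each list the text names the called genes (at most 5, smallest p first) or, where none was called, the 2 with the smallest p. Any exception is said in the text or listed here. Kit, Kdr, Krt8, Krt14, Col3a1, Fabp4, Adipoq, Lep and the genes called only on another probe set were named with values seen. The annotation of the array is GEO's. The members and lists were chosen with earlier results of these data known. Alternatives were another normalization, prior, weights, filter, replicate block, RNA quality covariate and leaving out each array. With 3 arrays a group, the number of arrays limits the precision.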

Additional observations from a re-analysis of the deposited data

How the results depend on the processing

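The 0 PDGF probe sets called became 1 with the RNA quality covariate (Pdgfd, 2.53), 0 to 1 on leaving out each array (the third Pdgfra probe set without WT1, -1.02, and Pdgfc without KO7, -1.02) and 3 at an unadjusted p under 0.05 with 1.5-fold. The 4 at an unadjusted p under 0.05 became 2 with a minimum mean log2 value of 6, and 3 to 6 on leaving out each array, with 6 without WT1. Over all 45037 probe sets the count at that p also rose, from 8686 with all arrays to 10932 without WT1. The 3 listed pathway genes called became 0 with the RNA quality covariate, 0 at an adjusted p under 0.05, 7 at an unadjusted p under 0.05 with 1.5-fold, 9 when any probe set of a gene could count, and 2 to 4 on leaving out each array. For the count on any probe set, no share over all genes was computed. No call turned its direction. Both Pdgfc probe sets kept their sign in 15 of 15 alternatives, and their highest p on leaving out an array was 0.0238 and 0.03. The deviations of same-numbered replicates (WT1 and KO5, WT2 and KO6, WT3 and KO7) from their group means had correlations of r = -0.155, 0.16 and 0.099. Pairs of unlike number were not compared, so this check cannot tell whether the numbers pair the mice. With the replicate block 0 PDGF probe sets and 3 pathway genes were called, and 3 PDGF probe sets had a p under 0.05. Over all probe sets 894 were called, 1634 without WT1, 566 without WT2, 316 with the covariate, 299 with unmoderated variances and 922 with the block. Signal limits the 5 PDGF probe sets with a mean under 6.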
